A study of Mus musculus with 6 samples.

Results

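The Id family (Id1, Id2, Id3 and Id4) and 5 Smad genes that act in the same pathway (Smad1, Smad4, Smad5, Smad6 and Smad7) were followed in fully-grown mouse oocytes that were wild type or carried a Marf1 mutation. These 9 genes were taken by name from the 19938 genes that the array annotation pairs with at least 1 probe set, and each of the 9 had exactly 1. They were selected on their names and family, by someone who already knew the log2 differences between the genotypes on these arrays, so the values of the 9 genes are given as a description, with errors but with no test. There were 3 wild-type and 3 mutant samples, each on 1 array of 35556 probe sets. The mutant mice were Marf1 ENU/ENU, carrying a chemically induced Marf1 allele on both chromosomes, and the controls were Marf1+/+. Both had the strain background C57BL/6J;C3HeB/FeJ, and no promoter or Cre limits the mutation to a cell type in the labels. All females were 21 days old when follicle growth was stimulated with eCG, a gonadotropin (5 IU, 46 hours). At 23 days the oocytes were taken from large antral follicles and stripped of their cumulus cells. The labels describe this germinal-vesicle stage as silent in transcription. The labels do not state how many oocytes or mice stand behind a sample, so the spread behind every error and p-value may be technical rather than between animals.

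Id proteins have a helix-loop-helix domain without the basic region that contacts DNA. They pair with basic helix-loop-helix (bHLH) transcription factors, above all the E proteins, and keep them off DNA. Id genes are classical targets of bone morphogenetic proteins (BMPs), whose receptors phosphorylate Smad1 and Smad5. These bind the common partner Smad4 and enter the nucleus, while Smad6 and Smad7 inhibit the pathway and are themselves induced by it. In the ovary, BMPs and related growth factors pass between the oocyte and the somatic cells around it.

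Id2, Id3 and Smad5 were higher in the mutant, and the other 6 genes were not separated between the genotypes. Id3 had the largest difference of the 9, 14.4-fold, followed by Id2 at 8.38-fold and Smad5 at 2.98-fold. Within each family, a close relative showed no such difference on its 1 probe set: Id1 and Id4 beside Id2 and Id3, and Smad1 beside Smad5. In a fit across all probe sets (limma, Benjamini-Hochberg adjustment over 35556 rows, adjusted p under 0.05 as the threshold) these 3 of the 9 passed as higher and 0 as lower. Of all 19938 genes 10.4% passed in either direction, 6.4% as higher and 4.04% as lower, and nothing is read from the count of 3, since the genes were chosen with this comparison known. The groups did not overlap in 3 of the 9 genes, beside 30.7% of all genes.

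**Figure D1:**
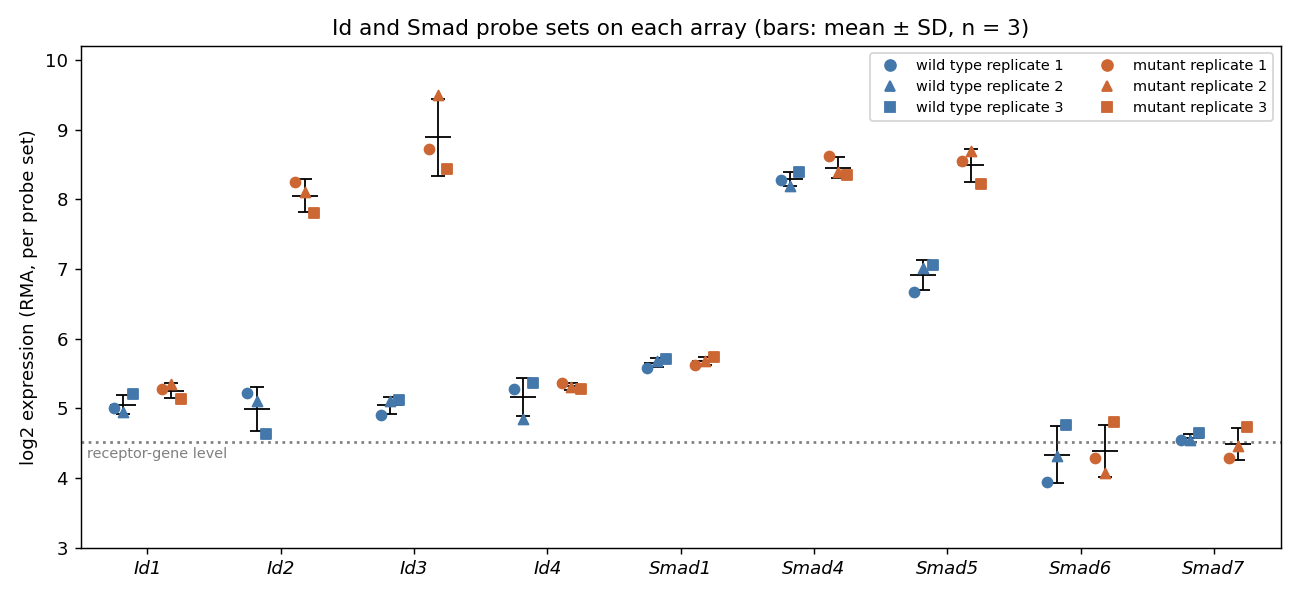
Log2 expression of the 9 genes on each of the 6 arrays, with wild type in blue, mutant in orange, the symbol giving the replicate, and black bars for the mean ± SD (n = 3); the dotted line is the receptor-gene level defined in the text. The mutant points of Id2, Id3 and Smad5 lie above all their wild-type points, and those of the other 6 genes overlap.

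Values are log2 expression per probe set as deposited, and since probe sets differ in how strongly they bind, levels are compared between arrays for a gene and never between genes. As a mark for a dim signal, the mean levels of 1231 olfactory, vomeronasal and taste receptor genes were taken, and their 95th percentile, at 4.51, is called the receptor-gene level. The values are relative within an array, so a change in the RNA content of the whole oocyte, or in the number of oocytes of a kind, cannot be told apart from a change in a transcript's share.

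The regions just upstream of Id2, Id3 and Id4 are shown because Id2 and Id3 moved together and Id4 did not. They are the 250 bases before the annotated start in RefSeq (GRCm38.p6), 5′ to 3′ on the strand of the gene. Capitals mark GGCGCC, the GC-rich element known to bind BMP-activated Smads, and CAGAC, the core of the Smad-binding element, searched on both strands. The Id2 sequence is chr12:25096093-25096342 (minus strand), the Id3 sequence chr4:136143572-136143821 (plus strand) and the Id4 sequence chr13:48260866-48261115 (plus strand).
Id2: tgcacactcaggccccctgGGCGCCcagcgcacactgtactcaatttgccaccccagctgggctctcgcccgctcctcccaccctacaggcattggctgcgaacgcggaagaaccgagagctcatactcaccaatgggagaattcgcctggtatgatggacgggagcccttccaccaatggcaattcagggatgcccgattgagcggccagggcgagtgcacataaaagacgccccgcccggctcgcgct
Id3: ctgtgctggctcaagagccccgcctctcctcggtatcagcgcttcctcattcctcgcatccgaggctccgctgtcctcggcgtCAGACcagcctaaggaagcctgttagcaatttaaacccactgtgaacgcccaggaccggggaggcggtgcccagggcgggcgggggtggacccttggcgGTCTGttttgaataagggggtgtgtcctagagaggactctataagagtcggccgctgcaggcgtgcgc
Id4: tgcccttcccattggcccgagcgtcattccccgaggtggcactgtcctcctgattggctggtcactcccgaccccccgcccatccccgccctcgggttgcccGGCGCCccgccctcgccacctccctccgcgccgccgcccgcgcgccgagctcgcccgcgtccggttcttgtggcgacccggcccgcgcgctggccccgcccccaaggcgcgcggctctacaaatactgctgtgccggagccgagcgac

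Id2 held 1 GGCGCC, with its upstream end 231 bases before the start, and 0 CAGAC. Id3 held 0 GGCGCC and 2 CAGAC, 167 and 68 bases before the start, the second of them on the other strand. Id4 held 1 GGCGCC, 148 bases before the start, and 0 CAGAC. Id2 and Id4 therefore held the same GC-rich letters and Id3 did not. Smad5, which was higher too, has 3 annotated starts. Of its windows 1 held GGCGCC 19 bases before its start, another held CAGAC 21 bases before its start, and the third held neither. The window with GGCGCC and that with neither share most of their bases, so they are not separate sequences. The windows of Smad1 and Smad6 held neither GGCGCC nor CAGAC, and no window of Id1, Smad4 or Smad7 was read. Among all 32851 RefSeq windows of the same length, 9.59% held GGCGCC and 42.2% held CAGAC. Id2 also had 3 matches to the CCAAT box (CCAAT, either strand), Id4 had 2 and Id3 had 0, against 33.8% of all windows with at least 1. No match overlapped another in these sequences, and a match in so short a window describes the sequence only.

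Id2 was higher in every mutant sample. Its probe set (10399691) read 5.22, 5.11 and 4.63 in wild type and 8.25, 8.11 and 7.80 in the mutant, in the order of the replicate numbers as for every gene that follows. The lowest mutant value lay 2.58 above the highest wild-type value, and within each genotype replicate 3 was the lowest. The means were 4.99 ± 0.31 and 8.05 ± 0.23 (log2, SD, n = 3 each), a difference of 3.07 (SE 0.20). In size this was number 67 of the 19938 genes, counted from the largest rise. Id2 is the family member best known in immune cells and in the mammary gland, where it restrains E protein activity.

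Id3 showed the widest gap and also the widest spread among the mutants. Its probe set (10509163) read 4.90, 5.11 and 5.12 in wild type and 8.72, 9.50 and 8.44 in the mutant. Wild-type arrays agreed closely (5.04 ± 0.12), whereas mutant replicate 2 stood above the other mutants (8.89 ± 0.55). The difference was 3.84 (SE 0.27), number 27 of all genes, and it was 3.54 without mutant replicate 2 and 4.07 without mutant replicate 3. In wild type the means of both Id2 and Id3 lay only a little above the receptor-gene level of 4.51, so the sizes of both differences may be lower bounds.

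Id1, a strongly responsive BMP target in many cell types, did not separate the genotypes. Its values were 5.00, 4.95 and 5.21 in wild type and 5.27, 5.35 and 5.14 in the mutant (probe set 10477169). Mutant replicate 3 fell below wild type replicate 3, and the difference was 0.20 (95% interval -0.13 to 0.53). Id4, known in spermatogonial stem cells, read 5.27, 4.85 and 5.36 in wild type and 5.36, 5.31 and 5.27 in the mutant (probe set 10404975). The groups overlapped, with a difference of 0.15 (95% interval -0.24 to 0.54). Neither interval reaches the size seen for Id2 or Id3. In both genotypes the means of Id1 (5.05 and 5.25) and Id4 (5.16 and 5.31) lay only a little above the receptor-gene level of 4.51. Each gene rests on 1 probe set, so a change in it may not be fully visible on this array.

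Of the Smads that BMP receptors phosphorylate, Smad5 was higher in the mutant, and Smad1 did not differ beyond its spread. Smad5 (probe set 10405605) read 6.67, 7.02 and 7.05 in wild type and 8.55, 8.69 and 8.22 in the mutant. Every mutant sample lay above every wild-type sample, and mutant replicate 3 was again the lowest of its group. The means were 6.91 ± 0.21 and 8.49 ± 0.24, a difference of 1.57 (SE 0.18), number 484 of all genes. Smad1 (probe set 10579860) read 5.58, 5.68 and 5.71 in wild type and 5.62, 5.68 and 5.73 in the mutant. Its 6 values spanned 0.15, the narrowest range of the 9 genes, and the difference was 0.02 (95% interval -0.28 to 0.32).

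The common partner and the inhibitors did not differ beyond their spread. Smad4, shared by the BMP and the activin branches, read 8.28, 8.19 and 8.39 in wild type and 8.62, 8.39 and 8.35 in the mutant (probe set 10459705; difference 0.17, 95% interval -0.17 to 0.50). Smad6, which mainly blocks the BMP branch, read 3.94, 4.31 and 4.76 against 4.28, 4.07 and 4.80 (probe set 10594418). Smad7, which blocks both branches, read 4.55, 4.54 and 4.64 against 4.28, 4.46 and 4.73 (probe set 10456745). The differences were 0.05 for Smad6 (95% interval -0.56 to 0.66) and -0.09 for Smad7 (95% interval -0.45 to 0.28). Both Smad6 means and the mutant mean of Smad7 were under the receptor-gene level, so a change in these inhibitors may not be visible on this array.

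**Figure D2:**
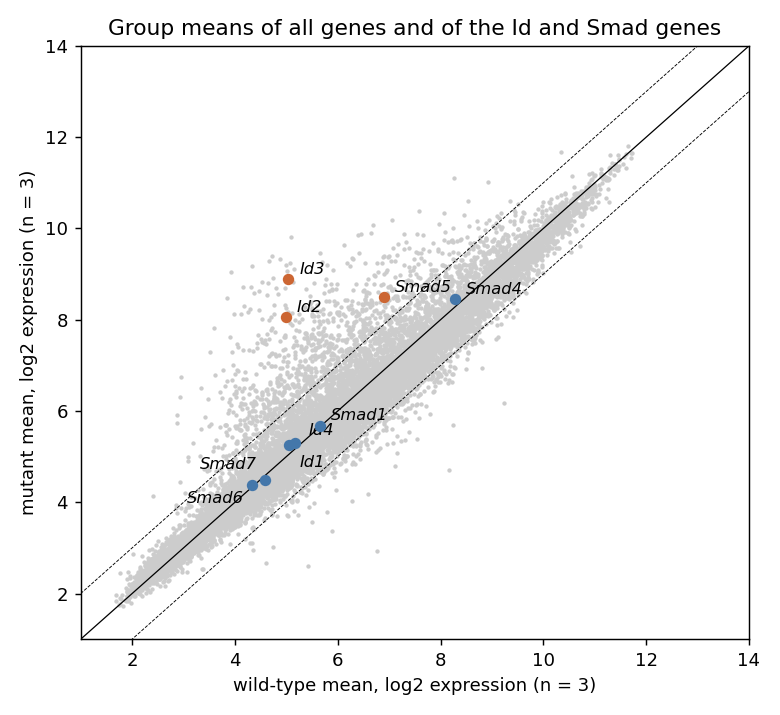
Mean log2 expression in the mutant (vertical axis) against wild type (horizontal axis), n = 3 each, for all 19938 genes in grey and the 9 genes in colour, orange where the gene passed the threshold; the solid line marks equal means and the dashed lines a difference of 1 on the log2 scale. Id2, Id3 and Smad5 lie above the upper dashed line, and the other 6 genes lie near the line of equal means.

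Other genes had nearly the same pattern over the arrays as Id2, Id3 and Smad5. For each, the 3 other genes with the nearest profile were found by the root mean square difference of the 6 values, each gene centred on its own mean over the 6 arrays. For Id2 these were Pak2, a p21-activated kinase (0.09), Klhl7, an adaptor of Cul3 ubiquitin ligases (0.11), and Bag5, a co-chaperone (0.12). For Id3 they were Tmx2, a thioredoxin-like membrane protein (0.17), B230219D22Rik (0.23) and Selenos, a selenoprotein of the endoplasmic reticulum (0.24). Tmx2 had 2 probe sets, and the brighter one was used. For Smad5 they were Cdk13, a kinase of RNA polymerase II (0.05), Trmt10c, a subunit of mitochondrial RNase P (0.05), and Pagr1a (0.08). Likeness over 6 arrays of 2 groups is mostly the shared step between the genotypes.

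**Figure D3:**
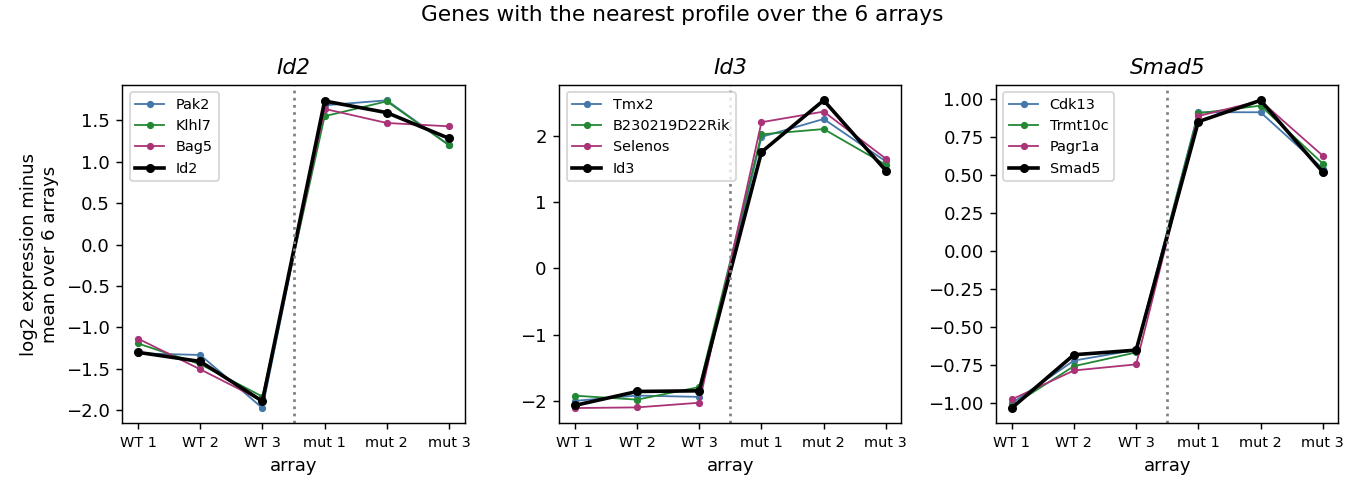
Log2 expression minus the mean over the 6 arrays for Id2, Id3 and Smad5 (black) and for the 3 genes nearest to each in profile (colours); lines only link the points of a gene, since replicates have no order. All 12 profiles step up from the wild-type (WT) to the mutant (mut) arrays, and in each the mutant 3 value is the lowest of the mutants.

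Mutant replicate 3 stood apart from the other arrays (r = 0.970 to 0.973 with the other mutants over all probe sets, against 0.984 to 0.985 between the other arrays of a genotype). It had the lowest mutant value in 6 of the 9 genes, Id2, Id3 and Smad5 among them, and in 69.9% of all 1276 genes that passed as higher. Among the 806 genes that passed as lower, it was also the lowest mutant in 55.1%. Over all probe sets mutant replicate 3 had the highest median (4.76) and the lowest SD (2.04) of the arrays. Without this array the differences were 3.19 for Id2, 4.07 for Id3 and 1.71 for Smad5. The gene named in the labels, Marf1, was lower in the mutant (6.18 ± 0.21 against 9.23 ± 0.08, difference -3.05, SE 0.15, limma adjusted p = 1.0e-04), though the labels do not say where its probes lie relative to the mutation. All 15 oocyte markers (Zp3, Gdf9 and Kit among them) lay above the receptor-gene level on every array. Of these 0 passed as higher and 1 as lower, beside 10.4% of all genes called. That one was Kit, the receptor for kit ligand, at 9.16, 8.91 and 9.47 in wild type and 7.92, 7.96 and 7.81 in the mutant (difference -1.28, SE 0.17, limma adjusted p = 0.00419). Nlrp5, a maternal-effect gene, also had all mutant values below all wild-type values but did not pass (difference -0.45, adjusted p = 0.15).

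Because granulosa and other ovarian cells also express Id genes, markers of those cells were read beside the Id values. Of 17 cumulus and granulosa markers 2 passed as higher and 1 as lower, beside 10.4% of all genes called. The kit ligand gene Kitl read 3.77, 3.59 and 3.79 in wild type and 5.97, 5.42 and 5.58 in the mutant (difference 1.94, adjusted p = 7.31e-04). The nuclear receptor gene Nr5a2 differed by 1.46 (adjusted p = 0.00251) while Ptgs2, the inducible prostaglandin synthase, read 5.31, 5.43 and 4.68 in wild type and 4.29, 3.86 and 4.27 in the mutant (adjusted p = 0.0409). The summed linear level of the 17 was 749 to 838 on the wild-type arrays and 1421 to 1782 on the mutant arrays, and with Nr5a2 set aside, after its value was seen, 364 to 417 against 350 to 425. The part of Kitl- or Nr5a2-expressing cells in the Id result was not tested. By their means over the 6 arrays, 8 of the 17 lay below the receptor-gene level. Fshr, the follicle-stimulating hormone receptor, lay below it on all 6 arrays, and Amh on all but wild type replicate 2. Others, such as Foxl2 and Gja1, lay above it on every array. Of 10 theca and stroma markers 1 passed as higher (Pdgfra, 0.67) and 0 as lower. Of 10 markers of blood, immune and endothelial cells 1 passed as lower (Pecam1, -1.07) and 0 as higher. For both lists the share called over all genes was again 10.4%. The summed levels were 203 to 228 in wild type and 205 to 245 in the mutant for theca and stroma, and 378 to 395 and 280 to 330 for blood, immune and endothelial cells. Pecam1 was the brightest of these last 10 on every array, so it weighs most in their sum. It read 7.28, 7.21 and 7.31 in wild type and 6.29, 6.48 and 5.82 in the mutant.

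Elsewhere in the pathway, the genes that passed lay in both directions. Of 122 measured genes in 7 lists of ligands, receptors, regulators, targets and partners, 12 passed as higher and 6 as lower (limma, adjusted over all probe sets), together 18, against 10.4% of all genes. The median difference of the 122 was -0.04, the same as over all genes. The count fell to 8, 9 and 7 without wild type replicates 1, 2 and 3 and to 10 without mutant replicate 1 or 2, and was 19 without mutant replicate 3. The 7 genes that kept the call under every setting were Lemd3, Acvr2a, Tcf12, Twsg1, Tgfbr1, Bmper and Sohlh1, all of them higher. The lists too were drawn up with earlier results of these data known. The calls in them and their stability over the same arrays are therefore a description.

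**Figure D4:**
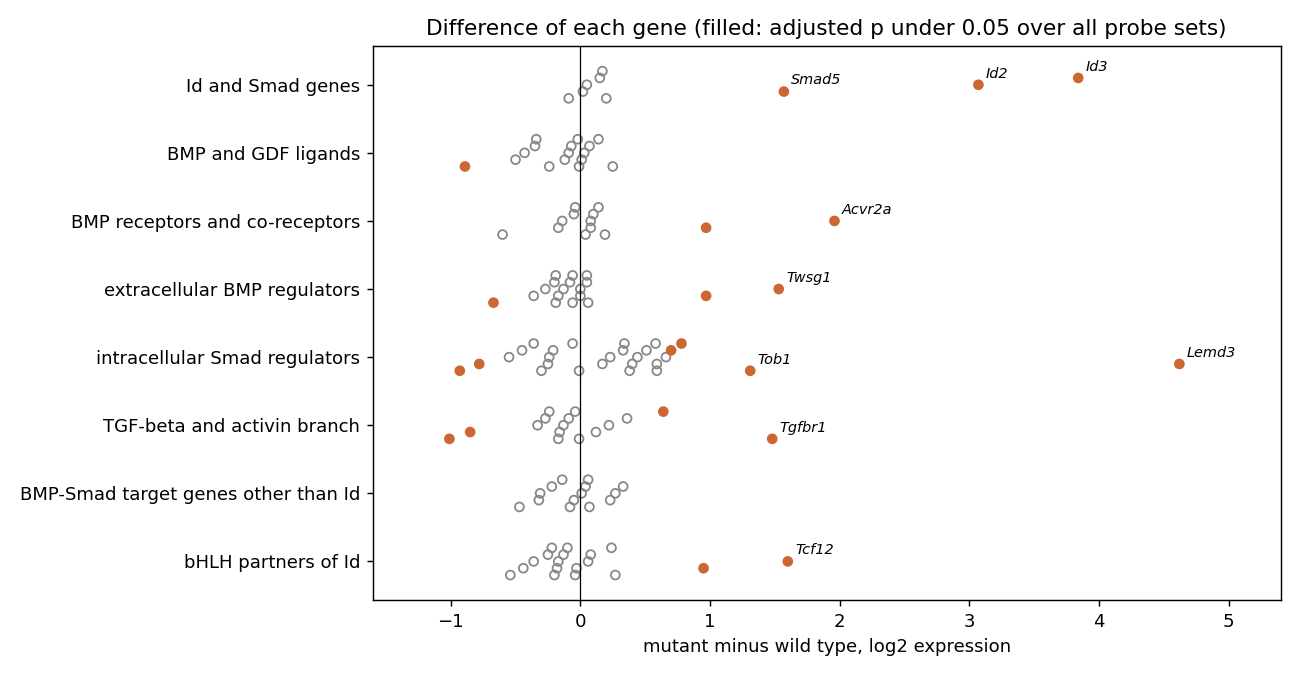
Difference between mutant and wild type (log2) for each measured gene of the 9 and of the 7 pathway lists, filled where the gene passed the threshold; points are spread vertically within a row for visibility, and called genes beyond 1.2 are named. Id2, Id3 and Lemd3 stand furthest to the right, and no gene of the target list is filled.

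Among ligands, Bmp6 was lower in the mutant. Of 16 BMP and growth differentiation factor genes 0 rose and 1 fell, beside 10.4% of all genes called, with a median difference of -0.08. Bmp6, a BMP made by oocytes, read 8.46, 8.31 and 8.68 in wild type and 7.51, 7.80 and 7.48 in the mutant. It fell by 0.89 (SE 0.16, limma adjusted p = 0.0170), with all mutant values below all wild-type values, but lost the call without wild type replicate 1 or 3 or mutant replicate 1. Bmp15 and Gdf9, the main secreted factors of the oocyte, differed by -0.07 (95% interval -0.43 to 0.29) and -0.09 (95% interval -0.39 to 0.22).

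The receptor genes that passed were both higher. Of 13 receptors and co-receptors 2 rose and 0 fell, beside 10.4% of all genes called (median 0.08). Acvr2a, a type II receptor for activins and BMPs, read 7.51, 7.85 and 7.22 in wild type and 9.52, 9.73 and 9.20 in the mutant, a rise of 1.96 (SE 0.21, limma adjusted p = 0.00165). Bmpr1a, a type I BMP receptor, rose by 0.97 (SE 0.23, adjusted p = 0.0447), with mutant replicate 3 at 7.85 well below the other mutants at 8.67 and 8.59. That call was lost when any 1 of the other 5 arrays was left out. The related type I receptor Bmpr1b lay the other way, at -0.60 (SE 0.18, adjusted p = 0.0981), with all mutant values below all wild-type values. The type II receptor Bmpr2 differed by 0.04 (95% interval -0.35 to 0.43) and the type I receptor Acvr1 by 0.19 (95% interval -0.17 to 0.54).

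Outside the cell, most regulators of BMPs did not pass. Of 18 measured, 2 rose, 1 fell and 15 were not called, beside 10.4% of all genes called (median -0.07). Twsg1, twisted gastrulation, which binds BMPs together with chordin, read 5.98, 6.45 and 6.39 against 7.98, 7.75 and 7.67, a rise of 1.53 (SE 0.18, limma adjusted p = 0.00209). Bmper, a BMP-binding endothelial regulator, rose by 0.97 (SE 0.15, adjusted p = 0.00814). The antagonist gene Chrdl1 fell by 0.67 (SE 0.13, adjusted p = 0.0211), to a mutant mean below the receptor-gene level, and kept the call in 1 of the 6 omissions, that of mutant replicate 3. The classical antagonist Nog differed by -0.19 and Grem1 by -0.08, neither past the threshold.

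Inside the cell, the regulators of Smads held the largest difference of the pathway. Of 27 measured, 4 rose and 2 fell, beside 10.4% of all genes called, and the list median was 0.33 against -0.04 for all genes. All mutant values lay above all wild-type values in 11 of the 27 and below them in 4. The groups did not overlap in 30.7% of all genes. Lemd3, also called MAN1, a protein of the inner nuclear membrane that binds activated Smads and limits their signal, read 3.54, 4.07 and 3.95 in wild type and 8.74, 8.44 and 8.24 in the mutant. It rose by 4.62 (SE 0.20, limma adjusted p = 5.73e-05) from a wild-type mean below the receptor-gene level, so the size may be a lower bound. Tob1, an antiproliferative protein that represses BMP-Smad transcription, rose by 1.31 (SE 0.24, adjusted p = 0.0158), the endosomal Smad adaptor Zfyve16 by 0.78 (adjusted p = 0.0187) and the Smad4 regulator Trim33 by 0.70 (adjusted p = 0.0449).

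The falls in that list were both in ubiquitin ligases that act on Smads. Nedd4l fell by 0.93 (SE 0.20, limma adjusted p = 0.0288) and Smurf1 by 0.78 (SE 0.16, limma adjusted p = 0.0289). The Smurf1 values were 7.21, 6.99 and 7.09 in wild type and 6.58, 6.25 and 6.11 in the mutant. Its relative Smurf2 differed by 0.44, not past the threshold (adjusted p = 0.163). All the calls of this list except that of Lemd3 were lost when any 1 of the wild-type arrays was left out, and 2 were left without mutant replicate 1 or 2. The count was 7 without mutant replicate 3. It was 10 with cyclic loess normalization and 3 after median centring.

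In the activin and TGF-beta branch 2 of 16 genes rose, 2 fell and 12 were not called, beside 10.4% of all genes called (median -0.11). Tgfbr1, a type I receptor of TGF-beta, read 5.95, 5.77 and 5.45 against 7.13, 7.28 and 7.21, a rise of 1.48 (SE 0.16, limma adjusted p = 0.00182). Smad2, a Smad of that branch, rose by 0.64 (SE 0.16, adjusted p = 0.0497), just inside the threshold, while its partner Smad3 differed by -0.04 (95% interval -0.44 to 0.37). The ligand gene Tgfb2 fell by 0.85 (SE 0.14, adjusted p = 0.0103), and Zfyve9, the anchor that presents Smad2 and Smad3 to the receptor, fell by 1.01 (SE 0.23, adjusted p = 0.0382). Of these, Tgfb2 lost the call without wild type replicate 3, Smad2 without any array but mutant replicate 3, and Zfyve9 without any wild-type array or mutant replicate 2.

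Of 14 measured genes in a list of BMP-Smad targets besides the Id genes, 0 passed in limma in either direction, beside 10.4% of all genes. At unadjusted p under 0.05 there were 0 higher and 1 lower, and the median difference was -0.02. The groups overlapped in all 14, while they did not overlap in 30.7% of all genes. Nothing particular to the list is read from these counts. Hey1 differed by -0.32, Hes1 by -0.22, Junb by -0.14, Msx2 by 0.04 and Atoh8 by -0.31, and Smad9, a further BMP Smad, by 0.06 (95% interval -0.29 to 0.41). Gata6, the gene lower at unadjusted p under 0.05, differed by -0.47. The rest were Prdm1 (0.33), Dlx5 (0.27), Msx1 (0.23), Gata2 (0.07), Gata3 (0.01), Tlx2 (-0.05) and Dlx3 (-0.08). Both Msx2 means lay below the receptor-gene level. Several others, such as Dlx5, Gata2 and Smad9, lay close to it, so small changes may not be visible. No test set Id2 and Id3 against the genes of this list.

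Among the bHLH proteins that Id proteins can bind, an E protein gene and a germ-cell factor rose. Of 18 measured, 2 rose and 0 fell, beside 10.4% of all genes called (median -0.12). Tcf12, which encodes the E protein HEB, read 6.86, 6.69 and 7.10 in wild type and 8.88, 8.51 and 8.07 in the mutant, a rise of 1.60 (SE 0.23, limma adjusted p = 0.00529). The other two E protein genes lay slightly lower without passing, Tcf3 at -0.36 (95% interval -0.77 to 0.05) and Tcf4 at -0.44 (95% interval -0.86 to -0.02). Sohlh1, a bHLH factor of early oocyte growth, rose by 0.95 (SE 0.16, adjusted p = 0.0109). Its partner Sohlh2 differed by -0.54 with a wide error (SE 0.31), wild type replicate 1 reading 6.79 against 5.60 and 5.64 in the other wild-type samples. Figla, the bHLH factor that drives zona pellucida genes with E proteins, differed by -0.10.

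The nearest genes along the chromosome were read beside the members, with order taken from RefSeq GRCm38.p6 and the neighbours chosen after the member values were seen. Beside Id3, the elongin A gene Eloa was also higher, at 5.99, 5.80 and 5.82 in wild type and 9.13, 8.72 and 8.47 in the mutant, a difference of 2.90 (SE 0.19), while E2f2 on the other side differed by -0.35. Beside Id2, Kidins220 differed by -0.57 (SE 0.13) and passed as lower, and Rnf144a differed by -0.28 and did not. Beside Smad5, Tgfbi differed by -0.10 and Trpc7 by 0.03. Elac1, the nearest measured gene on one side of Smad4, was higher by 2.37 (SE 0.23), although Smad4 itself did not separate the genotypes. Beside Smad1, Mmaa was higher by 0.71 (SE 0.16). In all, 3 of the 18 neighbours of the 9 genes passed as higher and 1 as lower, beside 10.4% of all genes.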

How the data were processed

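The deposited table holds log2 expression per probe set for 6 arrays, made by the authors with GCOS, Affymetrix Expression Console 1.1 and RMA, per the submitters' processing notes. RMA corrects background, is meant to equalise the distributions of the arrays, and summarises probes. Over the deposited rows the distributions still differed, with medians from 4.56 (mutant replicate 1) to 4.76 (mutant replicate 3). The SDs ran from 2.04 (mutant replicate 3) to 2.20 (mutant replicate 1). The build behind the array is not stated there. All 35556 rows were used, and no sample or value was left out or imputed.

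Groups came from the sample titles. Probe sets were named through the platform annotation (21789 rows with 1 gene, 1621 with several, 12146 unnamed), updated by Entrez ID to RefSeq GRCm38.p6 (21698 matched). Rows with several genes named none. For a gene with several rows the brightest was used. The fit used limma 3.58.1 (R 4.3.3, lmFit and eBayes, genotype only, two-sided, prior degrees of freedom 3.65), with Benjamini-Hochberg adjustment over all rows. Intervals are the fit's 95% intervals. The pipeline was tested on simulated data. Upstream sequences are from RefSeq. The windows of 1 chromosome were left out before the members were counted. After this 6 of the 9 genes had an entry, and Id1, Smad4 and Smad7 had none.

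The genes, the lists and the naming rule were chosen with earlier results of these data known. Named were the 9 genes, Marf1, list genes past the threshold (at most 6 per list), key pathway genes and the 3 nearest profiles of each gene spanning at least 1 log2 unit. Others were chosen after their values were seen. Of 125 pathway genes listed, 122 were measured.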

Additional observations from a re-analysis of the deposited data

How the results depend on the processing

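Since the 9 genes were chosen with this comparison known, their values under the 13 alternatives are a description and support nothing (12 for Smad6 and Smad7, which were left out when dim rows were removed). The differences ranged from 2.89 to 3.21 for Id2, 3.54 to 4.07 for Id3 and 1.45 to 1.73 for Smad5. Counts moved more. The number of probe sets past the threshold was 2765 and lay between 1368 and 2804 when 1 array was left out. The share of higher calls was 61.5% and became 73.8% with cyclic loess normalization. Over the 13 alternatives it ran from 53% (1 row per gene) to 78.3% (without wild type replicate 3). It was 56.2% with quantile normalization and 53.9% when rows with a mean at or under the median were removed. Leaving out 1 array gave 0 to 1 called ligands, 1 to 2 receptors, 2 to 3 extracellular regulators, 1 to 7 intracellular regulators, 1 to 4 genes of the activin and TGF-beta branch and 7 to 19 of all pathway genes. Intracellular regulators numbered 10 with cyclic loess, 3 after median centring, 11 with 1 row per gene and 10 when dim rows (mean at or under the median) were removed. Median centring left 1 receptor and 2 genes of the activin and TGF-beta branch. Receptors numbered 3, of which 2 were higher and 1 lower, in 3 settings. These were quantile normalization, 1 row per gene and the removal of dim rows. The cause of these moves was not tested. With the replicate number as a replicate block, 0 ligands and 2 genes of the activin and TGF-beta branch passed, and 1946 probe sets passed in all. The deviations of same-numbered samples from their group means correlated at r = 0.147, -0.0992 and 0.0267 for numbers 1 to 3. For unlike numbers r ran from -0.216 (wild type 1 with mutant 3) to 0.183 (wild type 2 with mutant 3). The numbers were therefore not taken to pair the samples. With 3 arrays a genotype, and without a deposited measure of background, small changes of dim genes such as Smad6 and Smad7 cannot be resolved.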
